A study of Mus musculus with 12 samples.

Results

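The vesicular glutamate transporter genes are *Slc17a6*, *Slc17a7* and *Slc17a8*, 3 of the 55450 genes of the GENCODE vM21 basic annotation and 3 of its 21951 protein-coding genes. They were chosen by name, as the glutamatergic counterpart of the genes that make and load GABA, and not by any measured value. Earlier results of these data were known when the choice was made. For each gene the window ran from 5 kb upstream of the annotated transcription start site (TSS) to the end of the gene, and everything below was read from the peaks in that window.

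The proteins encoded by these genes sit in the membrane of synaptic vesicles and load glutamate into them. *Slc17a7* encodes VGLUT1, the main transporter of mature cortical projection neurons. *Slc17a6* encodes VGLUT2, which prevails in the thalamus and brainstem and is found in cortical neurons early in life, and *Slc17a8* encodes VGLUT3, which is found in scattered neurons that often release a second transmitter. Acetylation of histone H3 at lysine 27 (H3K27ac) marks active promoters and enhancers. Trimethylation of the same residue (H3K27me3) is laid down by Polycomb complexes over silent or poised genes, and 1 histone tail cannot carry both.

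Neocortex was taken at postnatal day 2 from mice heterozygous for *Gad67-GFP*, a knock-in of GFP at *Gad1*, on a mixed genetic background maintained by crosses to CD-1, with males and females together and 2 to 3 litters pooled per sample. Cells sorted as GFP-positive are called cortical interneurons (CINs) and GFP-negative cells non-CINs, a mixture that holds glutamatergic projection neurons and glia. Both groups thus carry the same allele and differ only by the sort. Native ChIP-seq of H3K27ac and H3K27me3 in 2 replicates of each population gave 8 lists of broad peaks, all on mm10, and 4 input samples entered only through the peak calling. The H3K27ac lists held 46040 to 62505 peaks and the H3K27me3 lists 36662 to 45081. The read depth behind them is unknown here, so a window without a peak is one in which none was called. In pooled cells, fewer marked cells and less mark per cell cannot be told apart.

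The sorted populations were checked against marker genes by H3K27ac. Over the 23399 windows with H3K27ac in any list, 18.2% had more in both CIN lists than in both non-CIN lists and 17.9% had the reverse. Of 9 interneuron markers, 7 had more of their window covered in both CIN lists than in both non-CIN lists, and the summed length was 75617 and 63642 bp in the CIN lists against 15789 and 17041 bp in the non-CIN lists. *Gad1* is among the 7 and drives the GFP used for the sort, so it is not an independent check. *Lhx6* had no H3K27ac peak in any list. Of 7 projection neuron markers, *Emx1* and *Fezf2* had more in both non-CIN lists. Their summed lengths overlapped, at 12302 and 5680 bp in the CIN lists against 9996 and 11256 bp in the non-CIN lists, and *Neurod2* had no H3K27ac peak in any list. All 5 astrocyte markers had more H3K27ac in both non-CIN lists, with sums of 73058 and 74229 bp against 48603 and 44942 bp, and 2 of 4 microglial markers (*Cx3cr1* and *P2ry12*) did, with sums of 18169 and 15328 bp against 12878 and 11572 bp. The nearest *Cx3cr1* peaks lay 40446 to 40457 bp from its TSS. Its strongest peak stood higher in CINs, at the 88.4th and 91.2nd percentiles against the 81.8th and 80.8th in non-CINs. Of 4 oligodendrocyte lineage markers *Olig2* had more in both non-CIN lists and *Pdgfra* in both CIN lists, and of 4 endothelial markers only *Tek* was separated, with more in CINs. No member of these lists passed the test described below, and *Aif1* of the microglia and *Cldn5* of the endothelium had no H3K27ac peak. The part of glial chromatin in the values of the transporter genes was not tested.

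The promoters show where the 2 marks fell and did not fall. The sequences are the 250 bases immediately upstream of RefSeq starts in GRCm38.p6, 5′ to 3′ on the gene's strand, in lower case with each CpG dinucleotide in capitals. The *Slc17a7* stretch is chr7:45163671-45163920 (plus strand). For *Slc17a6* both RefSeq starts are given, since H3K27ac was found at each, at chr7:51621580-51621829 and chr7:51624387-51624636 (plus strand). The *Slc17a8* stretch is chr10:89621250-89621499 (minus strand), shown as the promoter with neither mark.
Slc17a7: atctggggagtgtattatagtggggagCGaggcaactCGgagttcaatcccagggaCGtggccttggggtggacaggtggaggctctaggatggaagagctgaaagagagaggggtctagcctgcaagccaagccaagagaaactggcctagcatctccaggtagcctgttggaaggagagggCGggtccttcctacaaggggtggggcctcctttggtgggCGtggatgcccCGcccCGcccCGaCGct
Slc17a6, first start: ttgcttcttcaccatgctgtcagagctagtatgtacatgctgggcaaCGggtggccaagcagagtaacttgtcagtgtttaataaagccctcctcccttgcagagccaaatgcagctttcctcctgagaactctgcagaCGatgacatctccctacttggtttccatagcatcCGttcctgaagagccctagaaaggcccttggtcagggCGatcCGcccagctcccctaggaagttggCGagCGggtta
Slc17a6, second start: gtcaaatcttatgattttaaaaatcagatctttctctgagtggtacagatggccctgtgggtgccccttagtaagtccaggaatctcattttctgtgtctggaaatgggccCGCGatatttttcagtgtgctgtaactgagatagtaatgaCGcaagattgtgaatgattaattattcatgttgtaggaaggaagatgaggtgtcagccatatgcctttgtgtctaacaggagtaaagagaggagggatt
Slc17a8: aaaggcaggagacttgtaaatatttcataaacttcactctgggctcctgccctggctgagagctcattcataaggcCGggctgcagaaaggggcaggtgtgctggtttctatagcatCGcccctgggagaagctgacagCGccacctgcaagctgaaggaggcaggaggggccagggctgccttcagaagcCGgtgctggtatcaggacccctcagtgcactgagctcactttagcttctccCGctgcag

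*Slc17a7* had 9 CpGs in this stretch, *Slc17a6* 7 at its first start and 3 at its second, and *Slc17a8* 5. Over 32851 RefSeq promoters cut in the same way the median was 6, so the 4 stretches lay at the 60.9th, 55.3rd, 33.4th and 47.0th percentiles. H3K27me3 covered all 250 bases of the *Slc17a7* stretch in 3 lists and 200 bases in non-CIN replicate 2, and all 250 bases of both *Slc17a6* stretches in every H3K27me3 list. H3K27ac covered 164 and 21 bases at the first *Slc17a6* start in CIN replicates 1 and 2, all 250 bases at the second start in both, and none in either non-CIN list. Neither mark reached the *Slc17a8* stretch in any list, nor the stretch upstream of its second RefSeq start.

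3 short motifs were searched on both strands: CAGATG, an E-box of the NEUROG and NEUROD kind found in 14.4% of the 32851 promoters, TAATTA, a core bound by DLX proteins found in 4.84%, and TCACAC, a core bound by T-box proteins such as TBR1 found in 12.3%. The stretches of *Slc17a7*, of the first *Slc17a6* start and of the first *Slc17a8* start held none of these letters. The second *Slc17a6* start held TAATTA 81 bases upstream and CAGATG 205 bases upstream. The stretch upstream of the second *Slc17a8* start, which neither mark reached, held both as well, TAATTA at 141 and CAGATG at 42 bases. These are matches of letters only.

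*Slc17a7* (ENSMUSG00000070570.5), at chr7:45163949-45176142 on the plus strand, had no H3K27ac peak in any of the 4 lists and H3K27me3 over most of its window in all 4. The number of H3K27me3 peaks was 4 and 2 in CIN replicates 1 and 2 and 3 and 3 in non-CIN replicates 1 and 2. They covered 10193 and 10883 bp in the CIN lists and 10039 and 10657 bp in the non-CIN lists, or 59.28%, 63.30%, 58.39% and 61.98% of the 17194 bp window. The populations overlapped, and in both of them replicate 2 was the higher.

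The fold enrichment of a peak over input was read only as its percentile among all peaks of its own list. The strongest H3K27me3 peak at *Slc17a7* stood at the 98.8th and 97.5th percentiles in CINs and at the 99.1st and 97.3rd in non-CINs. On the log2(covered bp + 200) scale the difference, non-CIN minus CIN, was −0.03 (95% interval −0.82 to 0.77; limma across 14979 windows, adjusted *p* = 1). No difference passed the test, and the interval allows one of either sign. Means were 10538.0 ± 487.9 bp in the CIN lists and 10348.0 ± 437.0 bp in the non-CIN lists (SD, n = 2), with an exact two-sided permutation *p* of 0.667. With 2 lists against 2, such a test cannot go below 0.333. The replicates are separate pools of litters, and the *p* values measure the spread between these lists only.

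The H3K27me3 at *Slc17a7* lay in a pair of blocks at similar places in both populations. The first began at −978 to −776 bp from the TSS, ended at 6956 to 7821 bp and held the first exons. The stretch shared by all 4 lists was chr7:45163173-45170905 (7733 bp) after peaks at most 500 bp apart were joined. The TSS itself was under a peak in 3 lists, and in non-CIN replicate 2 it fell in a gap of 235 bp whose edge was 79 bp away. Then came a stretch of 2235 and 2125 bp in the CIN lists and 2346 and 2280 bp in the non-CIN lists without H3K27me3 before the next peak. In non-CIN replicate 1 that next peak was a weak one of 203 bp at the 25.4th percentile, over the microRNA gene *Mir7055*.

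The second block began 9.95 to 10.09 kb from the TSS, covered the last exon and ran on past the gene to 19.69 and 22.66 kb in CINs and 19.74 and 22.96 kb in non-CINs. The longest of its peaks measured 12919 bp, and these peaks stood at the 96.9th to 98.8th percentiles of fold enrichment. The part common to all 4 lists, chr7:45174040-45183643 (9604 bp), also held *Gfy* and *Pth2* and part of *Ccdc155*. *Pth2* encodes a neuropeptide, tuberoinfundibular peptide.

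Within the window, the shared part of the covered bases (the bases under both lists over the bases under either) was 0.937 for the replicates of CINs and 0.865 for those of non-CINs. Between populations it was 0.909 for replicate 1 and 0.950 for replicate 2. Over 4621 protein-coding windows with H3K27me3 in all 4 lists, the medians of these 4 measures were 0.494, 0.481, 0.523 and 0.702. The CIN and non-CIN domains at *Slc17a7* were thus as alike as the replicates of a single population.

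The nearest H3K27ac to the *Slc17a7* TSS was 8953 to 9306 bp upstream, at the start sites that *Aldh16a1* and *Pih1d1* share. That region was common to all 4 lists (chr7:45153533-45154643) and stood at the 99.1st to 99.6th percentiles. Within 100 kb of *Slc17a7* on either side there were 10 and 6 H3K27ac peaks in CINs and 12 and 10 in non-CINs, covering 2.92% to 4.89% of the sequence. The medians over protein-coding genes were 2.17% to 2.87%, so acetylated chromatin was present around the gene in both populations while its own window had none.

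**Figure D1:**
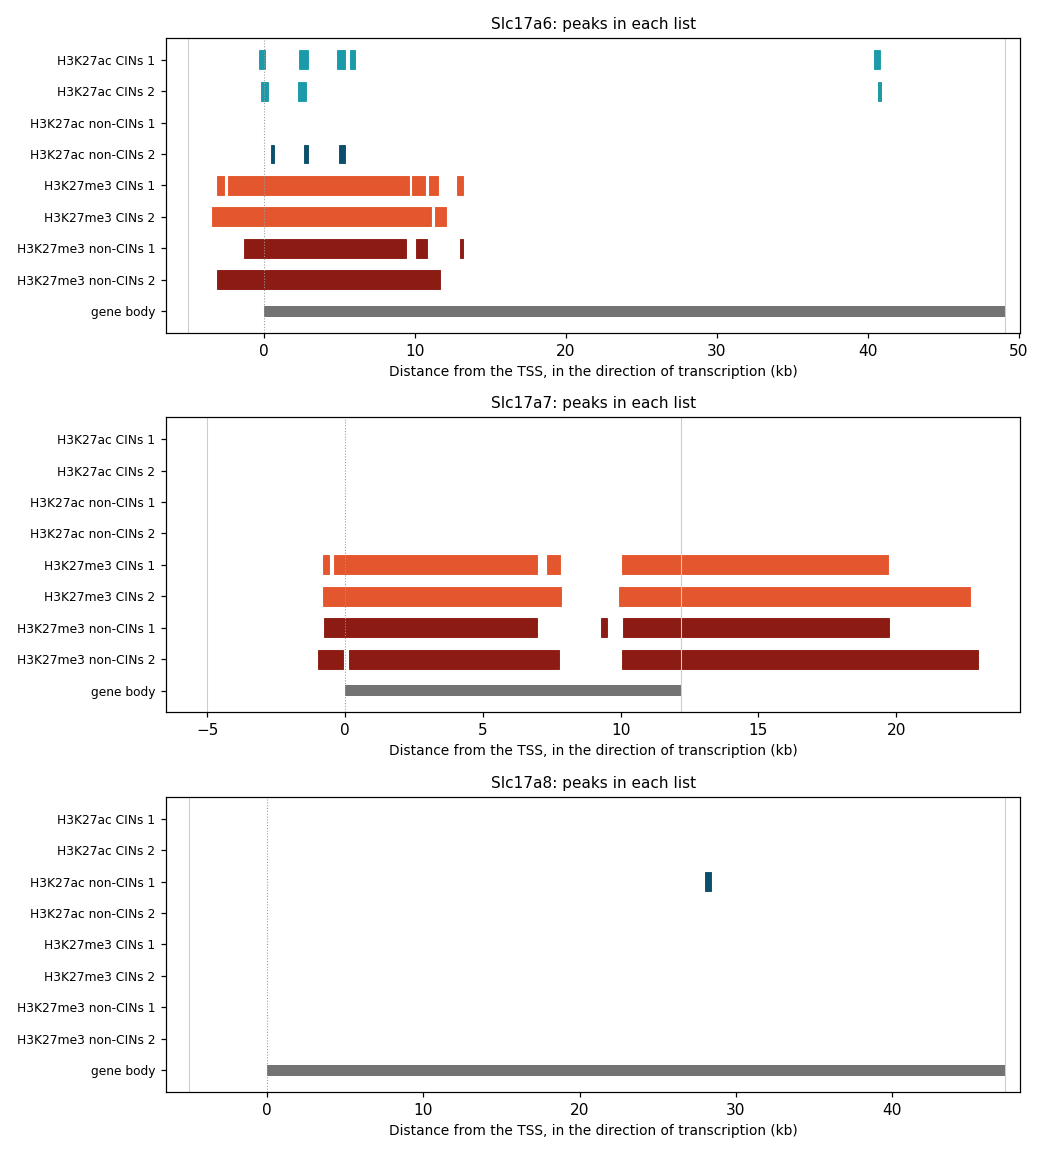
Position of every peak that meets the windows of *Slc17a6*, *Slc17a7* and *Slc17a8*, in kb from the annotated TSS in the direction of transcription, with 1 row for each list (mark, population, replicate) and the gene body in grey; grey lines mark the window. *Slc17a6* and *Slc17a7* carry long H3K27me3 peaks in all 4 lists, short H3K27ac peaks are seen at *Slc17a6* in 3 lists, and *Slc17a8* has 1 peak in 1 list.

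*Slc17a6* (ENSMUSG00000030500.6), at chr7:51622006-51671119 on the plus strand, was the gene with both marks. A long H3K27me3 domain lay over its start in all 4 lists, and short H3K27ac peaks lay inside that domain in both CIN lists and in 1 non-CIN list. The number of H3K27me3 peaks was 5 and 2 in CIN replicates 1 and 2, and 3 and 1 in non-CIN replicates 1 and 2. They covered 14413 and 15235 bp in the CIN lists and 11657 and 14782 bp in the non-CIN lists, which is 26.63%, 28.15%, 21.54% and 27.32% of the 54114 bp window. Non-CIN replicate 1 was the lowest, and the populations overlapped.

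The strongest *Slc17a6* H3K27me3 peak stood at the 99.7th and 99.5th percentiles in CINs and at the 99.7th and 99.4th in non-CINs. It was the longest peak of the window in each list, at 11941, 14540, 10741 and 14782 bp, and in every list it covered exons 1 to 3. The log2 difference in covered length was −0.17 (95% interval −1.06 to 0.71; limma, adjusted *p* = 1), and the means were 14824.0 ± 581.2 bp and 13219.5 ± 2209.7 bp (SD, n = 2; exact permutation *p* = 0.667). The spread between the non-CIN replicates was larger than the difference between the populations.

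In non-CIN replicate 1 the main *Slc17a6* peak began 1296 bp upstream of the TSS and ended 9444 bp downstream, against 2353 to 3440 bp upstream and 9587 to 11652 bp downstream in the other lists. All 4 lists shared chr7:51620710-51631450 (10741 bp), and chr7:51632085-51632791 (707 bp), which overlaps the unconfirmed transcript *Gm45072*. The shared part of the covered bases was 0.862 between CIN replicates and 0.764 between non-CIN replicates, and 0.796 and 0.938 between the populations in replicates 1 and 2. Beyond these peaks no H3K27me3 was called within 100 kb of *Slc17a6* in any list.

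H3K27ac at *Slc17a6* differed more between lists. There were 5 and 3 peaks in CIN replicates 1 and 2, covering 2171 and 1196 bp, and 0 and 3 peaks in non-CIN replicates 1 and 2, covering 0 and 879 bp. Both CIN lists were thus above both non-CIN lists, as they were in 18.2% of the 23399 windows with H3K27ac in any list, while 17.9% had both non-CIN lists above. The strongest peak stood at the 33.0th and 27.1st percentiles in CINs and at the 30.8th in non-CIN replicate 2, so by fold enrichment the populations were not separated.

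The log2 difference of *Slc17a6* H3K27ac was −1.97 (95% interval −4.84 to 0.90; limma across 23399 windows, adjusted *p* = 0.714). Means were 1683.5 ± 689.4 bp and 439.5 ± 621.5 bp (SD, n = 2; exact permutation *p* = 0.333, the lowest the design allows). The value rested on non-CIN replicate 1, the list with no peak: without it the difference was −0.75, and without non-CIN replicate 2 it was −3.19.

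Across all windows this test called 0 windows (0%) in either direction for either mark at an adjusted *p* of 0.05. In simulated data the same fit missed most planted H3K27ac differences and every planted H3K27me3 difference, so the absence of calls does not show that windows were alike. At an unadjusted *p* under 0.05 there were 2219 H3K27ac windows (9.48%) and 609 H3K27me3 windows (4.07%), and the median differences were −0.01 and 0.09. Other settings did make calls, for H3K27me3 only when no filter was used, and these are given under the processing alternatives. None of them called a transporter gene.

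The *Slc17a6* peaks fell at 4 places. A peak over the TSS was found in CIN replicate 1 (−0.34 to 0.06 kb, 33.0th percentile) and in CIN replicate 2 (−0.20 to 0.25 kb, 6.3rd percentile), which share 258 bp. Neither non-CIN list had a peak over the TSS, but non-CIN replicate 2 had one of 209 bp at 0.47 to 0.67 kb, still in exon 1 (22.8th percentile). In non-CIN replicate 1 the nearest H3K27ac peak to the TSS was 126571 bp away.

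The next place was the second RefSeq start of *Slc17a6*, 2631 bp inside the annotated gene and within intron 1 of the GENCODE transcript. Peaks of 579 and 546 bp in the CIN lists and of 261 bp in non-CIN replicate 2 met there, at the 13.8th, 27.1st and 30.8th percentiles. The 143 bp under all 3 peaks, chr7:51624648-51624790, began 11 bp past that start, downstream of the sequence printed above. No base of the window was under H3K27ac in all 4 lists.

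At the third place, about exon 3, CIN replicate 1 and non-CIN replicate 2 had a peak each (4.83 to 5.34 kb and 4.95 to 5.36 kb), and CIN replicate 1 had another at 5689 to 6012 bp in the intron that follows. The last was intronic, 40.44 to 40.87 kb from the TSS, with a peak of 350 bp in CIN replicate 1 and of 205 bp in CIN replicate 2, at the 2.8th and 11.9th percentiles. High-confidence (HC) peaks, meaning bases under peaks of both replicates, numbered 3 in CINs (258, 464 and 125 bp) and 0 in non-CINs.

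Of the HC peaks of *Slc17a6*, those at the TSS and at 40.66 to 40.79 kb were CIN-only, with no overlap in the non-CIN list of the same replicate number. They were 2 of 4182 such H3K27ac regions in the genome, beside 2775 non-CIN-only regions and 27746 common to all 4 lists. None of the 2775, nor of the 1286 non-CIN-only H3K27me3 regions, lay within 100 kb of any of the 3 genes. The share of all genes with such a region that near is not given here. These counts, and the 2 CIN-only regions of *Slc17a6*, thus cannot be read as particular to these genes. All of the *Slc17a6* H3K27ac peaks were near the calling threshold. Their −log10 *q* ran from 2.36 to 4.15 where the lowest values in the 4 lists were 2.21 to 2.60, and when a −log10 *q* of at least 4 was asked, 1 peak remained, that of CIN replicate 2 at the second start, and no HC peak.

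Among windows of protein-coding genes with any H3K27ac in the same list, the strongest peak of *Slc17a6* was at the 4.57th, 4.29th and 5.04th percentiles, where the median window reached the 86.8th, 84.0th and 82.6th percentile of its list. For H3K27me3 the same measure put *Slc17a6* at the 96.5th to 98.0th percentiles of windows. By covered length its H3K27ac was less extreme, at the 57.1st, 31.2nd and 19.3rd percentiles, above the median window in CIN replicate 1. By the strongest peak, *Slc17a6* was thus high among H3K27me3 windows and low among H3K27ac windows of the same cells.

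**Figure D2:**
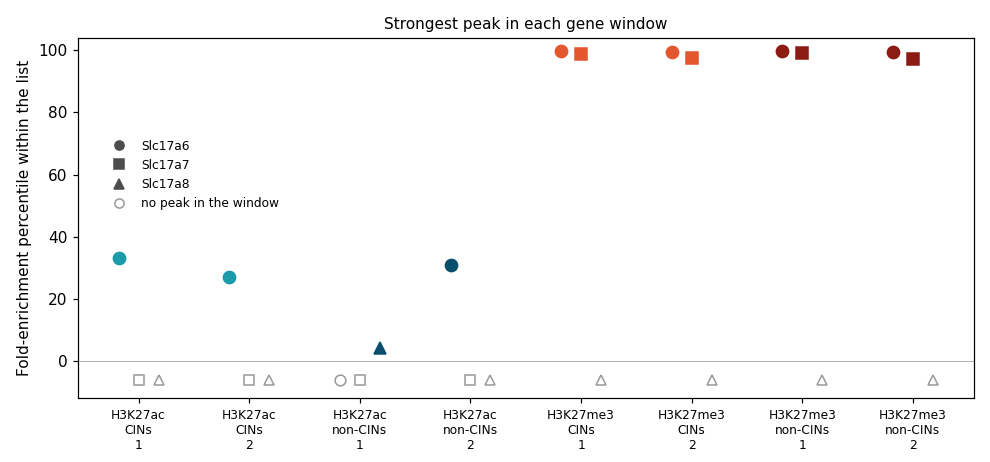
Strongest peak of each transporter gene in each list, as the percentile of its fold enrichment among all peaks of that list (vertical axis, in percent of peaks; horizontal axis, the 8 lists by mark, population and replicate). Filled symbols are values and open grey symbols below 0 are windows with no peak. All H3K27me3 values of *Slc17a6* and *Slc17a7* lie at 97.3 or above, and no H3K27ac value lies above 33.0.

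Of the H3K27ac peaks of *Slc17a6*, all but the intronic ones near 40 kb lay wholly under H3K27me3 peaks of the same population and replicate. The overlap came to 1821 of 2171 bp in CIN replicate 1, 991 of 1196 bp in CIN replicate 2 and 879 of 879 bp in non-CIN replicate 2. The lists of both marks in a population and replicate were called against the same input, and they cannot say whether both marks were in the same cells or on the same chromosomes. Whether the overlap reflects a mixture of cells was not tested.

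H3K27me3 in all 4 lists and H3K27ac in 1 to 3 of 4, the pattern of *Slc17a6*, was found in 968 of 21951 protein-coding genes (4.41%). The pattern of *Slc17a7*, with H3K27me3 in all 4 lists and no H3K27ac, was found in 1247 (5.68%). The TSS of *Slc17a6* was under H3K27me3 in all 4 lists and under H3K27ac in both CIN lists and no non-CIN list. This narrower pattern, looked for after the values of *Slc17a6* were seen, was found in 14 genes (0.0638%), and the mirror pattern with both non-CIN lists and no CIN list in 2 (*A930009A15Rik* and *Zic4*). Of the marker and list genes used here, *Gad2*, *Dlx1* and *Dlx6* were also among the 14. *Slc17a6* is among the 14 by the 466 bp between its TSS and the nearest peak of non-CIN replicate 2.

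*Slc17a8* (ENSMUSG00000019935.16), at chr10:89574020-89621253 on the minus strand, had no H3K27me3 peak in any list and a single H3K27ac peak in 1 list. That peak, of 433 bp, was in non-CIN replicate 1, 28.02 to 28.45 kb downstream of the TSS, and overlapped an exon by 87 bp. It stood at the 4.3rd percentile of its list with a −log10 *q* of 2.60, and covered 0.83% of the 52234 bp window. CIN replicates 1 and 2 and non-CIN replicate 2 had 0 bp.

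The log2 difference of *Slc17a8* H3K27ac was 0.83 (95% interval −1.07 to 2.73; limma, adjusted *p* = 0.714; exact permutation *p* = 1), and it rested on that list alone. In the other 3 lists the nearest H3K27ac peak lay 63855 to 64326 bp upstream of the TSS, at *Scyl2*, and the nearest H3K27me3 peak 65752 to 76023 bp away. Within 100 kb of the gene H3K27ac covered 0.66% to 1.67% of the sequence in the 4 lists and H3K27me3 0.22% to 0.53%, below the medians of protein-coding genes of 2.17% to 2.87% and 0.73% to 1.07%. An absence of H3K27me3 with H3K27ac in at most 1 list was the pattern of 5388 protein-coding genes (24.5%).

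In order of covered length, *Slc17a6* had the most H3K27me3 of the 3 in every list, then *Slc17a7*, then *Slc17a8* with none. As a share of the window the order of *Slc17a6* and *Slc17a7* was turned, with 58.39% to 63.30% for *Slc17a7* and 21.54% to 28.15% for *Slc17a6*, since the domains cover the start of a long gene and most of a short one. Among windows of protein-coding genes with H3K27me3, the covered share of *Slc17a7* was at the 94.2nd to 94.9th percentiles and that of *Slc17a6* at the 84.8th to 86.9th. In neither measure did the populations separate for any of the 3 genes.

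**Figure D3:**
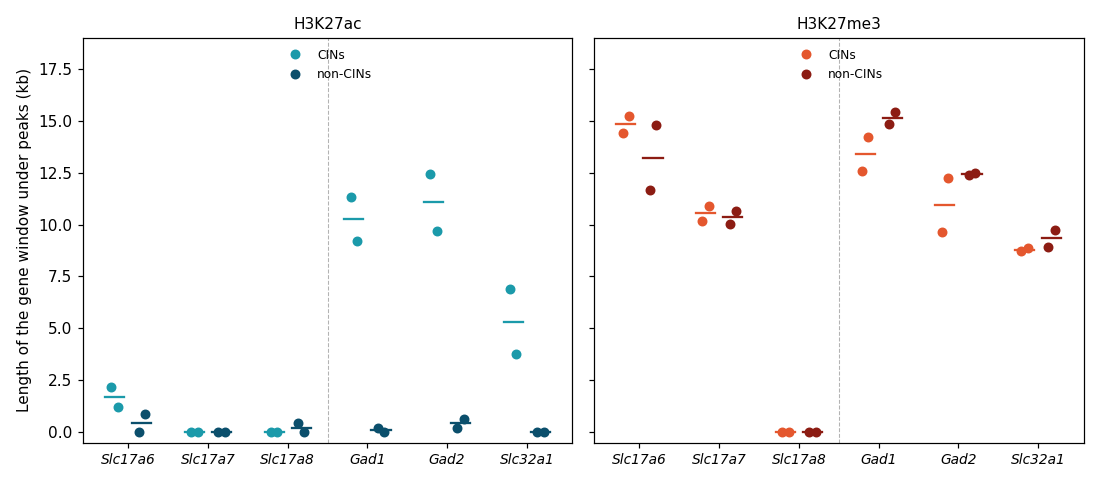
Length of the gene window under peaks, in kb, for the 3 transporter genes (left of the dashed line) and 3 GABA genes, with H3K27ac on the left and H3K27me3 on the right. Points are the 2 replicate lists of each population and bars their mean; the GABA genes have 3757 to 12423 bp of H3K27ac in CINs and at most 652 bp in non-CINs, and no transporter gene has the reverse.

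The GABA genes gave the comparison for which the transporters were chosen. *Gad1* and *Gad2* encode the enzymes that make GABA and *Slc32a1* its vesicular transporter. *Gad1* had 11344 and 9187 bp of H3K27ac in CINs and 219 and 0 bp in the non-CIN lists. *Gad2* had 12423 and 9710 bp against 215 and 652 bp, and *Slc32a1* 6881 and 3757 bp against 0 and 0 bp.

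These 3 were separated by both measures in the CIN direction. In highest percentile, both CIN lists stood above both non-CIN lists in 20.5% of H3K27ac windows and the reverse in 16.4%. The log2 differences were −5.17 (95% interval −6.48 to −3.86), −4.23 (−5.53 to −2.94) and −4.73 (−5.76 to −3.69), with adjusted *p* values in the same limma fit of 0.102, 0.115 and 0.100. No transporter gene had a matching difference in the non-CIN direction: *Slc17a7* had no H3K27ac in non-CINs, *Slc17a6* had more in CINs, and the only value above 0 was the 0.83 of *Slc17a8*.

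For H3K27me3 the GABA genes had long domains in both populations, like *Slc17a6* and *Slc17a7* and unlike *Slc17a8*, which had none. *Gad1* had 12577 and 14240 bp in the CIN lists and 14825 and 15441 bp in the non-CIN lists, *Gad2* 9626 and 12257 bp against 12390 and 12469 bp, and *Slc32a1* 8717 and 8868 bp against 8935 and 9727 bp. All 3 had more in both non-CIN lists, as did 11.0% of the 14979 windows, while 6.66% had more in both CIN lists. In highest percentile they also stood higher in both non-CIN lists, against a background of 13.7% (8.45% for the reverse). The log2 differences were small, at 0.17 (95% interval −0.63 to 0.98), 0.19 (−0.69 to 1.07) and 0.08 (−0.71 to 0.87), beside −0.17 for *Slc17a6* and −0.03 for *Slc17a7*. By neither measure were *Slc17a6* and *Slc17a7* separated between the populations.

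**Figure D4:**
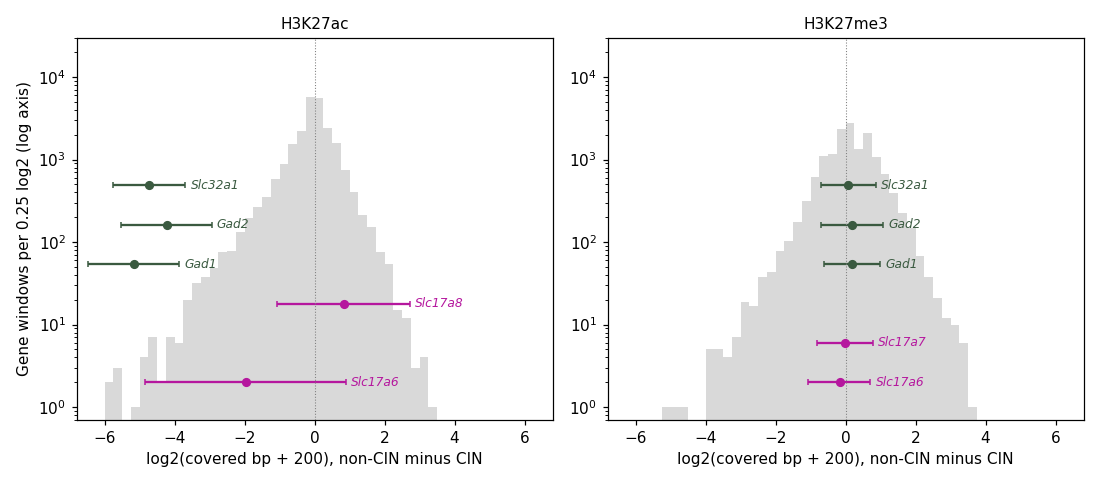
Differences in covered length between non-CINs and CINs, as log2(covered bp + 200), for H3K27ac (left) and H3K27me3 (right). Grey bars count gene windows per bin on a log axis (differences beyond ±6 are placed in the end bins), and points with lines are single genes with their 95% intervals from limma, spaced vertically for legibility only. The 3 GABA genes lie far to the left for H3K27ac, and the intervals of all transporter genes include 0.

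Other genes of glutamate handling and of the synapse were taken from lists, and none of them was called by the test for either mark. Of 6 other SLC17 genes, which move phosphate, sialic acid or nucleotides, 3 had H3K27ac in any list, with a median log2 difference of −0.14 and 0 separated in either direction. *Slc17a1* was measured only by scattered peaks, with 504 bp of H3K27ac in CIN replicate 1 and 355 and 201 bp of H3K27me3 in CINs, and *Slc17a2*, *Slc17a3* and *Slc17a4* had no H3K27me3 peak. *Slc17a5*, the lysosomal sialic acid transporter, had 1961 to 2779 bp of H3K27ac in all 4 lists. The 1 relative with any H3K27me3 was *Slc17a1*, unlike the long domains of *Slc17a6* and *Slc17a7*.

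All 12 genes of glutamate synthesis and uptake had H3K27ac in all 4 lists, as did 56.7% of protein-coding genes. 4 had more H3K27ac in both non-CIN lists (*Glud1*, *Got2*, *Slc1a2* and *Slc1a3*) and 3 in both CIN lists (*Got1*, *Slc1a1* and *Slc1a6*), beside 17.9% and 18.2% of all windows, and the median log2 difference was 0.07. *Slc1a2* and *Slc1a3* encode the glutamate transporters of astrocytes and *Slc1a1* a neuronal one. *Slc1a3*, with 21905 and 23715 bp in the CIN lists and 33243 and 38912 bp in the non-CIN lists, is also among the astrocyte markers above. The enzymes and uptake carriers were thus acetylated in the same lists in which *Slc17a7* was not.

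Among 7 vesicular transporters of other transmitters and GABA genes, 6 had H3K27ac and 5 had more in both CIN lists (*Slc32a1*, *Slc18a1*, *Slc18a2*, *Gad1* and *Gad2*), with a median of −3.50 and none in the other direction (18.2% and 17.9% of all windows). All 7 had H3K27me3, 3 with more in both non-CIN lists (the GABA genes) and 1 with more in both CIN lists (*Slc18a1*), beside 11.0% and 6.66% of all windows. *Slc18a3*, the vesicular acetylcholine transporter, resembled *Slc17a7*: it had no H3K27ac in any list and 4810 and 5780 bp of H3K27me3 in CINs and 4671 and 5148 bp in the non-CIN lists, at the 97.8th to 98.7th percentiles. *Slc18a2*, the vesicular monoamine transporter, had 4569 and 791 bp of H3K27ac in CINs and 310 and 0 bp in the non-CIN lists, with 2973 to 5472 bp of H3K27me3 and its TSS under a peak in all 4 lists.

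Of 10 presynaptic vesicle genes, which serve all transmitters, *Snap25* and *Cplx1* had more H3K27ac in both CIN lists and *Vamp2* in both non-CIN lists (median −0.53), counts near the 18.2% and 17.9% of all windows. For H3K27me3, *Syn2* had more in both non-CIN lists (11.0% of all windows did) and the median over 7 genes was 0.23. *Snap25*, part of the release machinery, had 1515 and 853 bp of H3K27ac in CINs and 0 and 335 bp in the non-CIN lists (log2 difference −2.04, 95% interval −3.85 to −0.22, limma, adjusted *p* = 0.471). The value is close to the −1.97 of *Slc17a6*, with the same list empty.

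Of 10 regulators of projection neurons, 3 had more H3K27ac in both non-CIN lists (*Emx1*, *Emx2* and *Fezf2*), beside 17.9% of all windows, with a median of 0.36 over the 8 with a peak. All 10 had H3K27me3, with a median of −0.03, and 3 had more of it in both CIN lists (*Neurog2*, *Neurod6* and *Emx1*), beside 6.66% of all windows. *Neurod1*, with its whole 9231 bp window under H3K27me3 in all 4 lists, and *Neurod2*, with 7754 to 8508 bp and no H3K27ac, had long H3K27me3 domains like *Slc17a6* and *Slc17a7*. *Neurod6* had 1805 and 3171 bp of H3K27me3 in CINs and 0 and 0 bp in the non-CIN lists (log2 difference −3.70, 95% interval −4.90 to −2.50, limma, adjusted *p* = 0.861). No transporter gene had such an absence of H3K27me3 in non-CINs alone. The names of separated genes in these lists were taken after the counts were made.

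The genes most like each transporter were sought by the Euclidean distance between the 8 covered shares of the window (in percentage points, over protein-coding genes). Nearest to *Slc17a6* was *Nhlh1* at a distance of 2.87, with 26.2% and 28.0% under H3K27me3 in CINs, 21.3% and 26.8% in non-CINs, and 3.6% under H3K27ac in CIN replicate 1 only. *Oxt* and *Wnt2b* followed at 5.40 and 5.53, with no H3K27ac in any list. Nearest to *Slc17a7* were *Gata4* (3.07), *Kcna7* (3.25) and *Nags* (3.79), all with no H3K27ac and with 56.3% to 66.1% under H3K27me3. For *Slc17a8* the measure singles out little, since 8490 protein-coding genes lay within a distance of 5. The nearest were *Dydc1*, *Dydc2* and *Dsc1*, each with 0.8% under H3K27ac in non-CIN replicate 1 and nothing else.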

How the data were processed

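Cortices of *Gad67-GFP* mice were sorted, and native ChIP was performed for both marks in 2 replicates of each population. Alignment by the authors was to mm10 (BWA *mem*), reads of mapping quality 30 or more were kept (samtools), and MACS2 called broad peaks against the matched input with fragments of 200 bp, no model, no local background and a *q* cutoff of 0.01. The submitters' processing notes name BWA 0.7.15 and MACS2 2.2.7.

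Each deposited list gives a score made by the peak caller from the *q* value, which was not used. The fold enrichment is the deposited ratio of ChIP to input signal and was used only as a percentile within its list. The −log10 *p* and −log10 *q* values were computed by the authors' peak caller, and only the latter was used. None is a read count, so depth and its precision cannot be stated.

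Covered length was taken over all 55450 GENCODE vM21 basic gene windows, chromosome names and coordinates being those of mm10. Windows with a peak in at least 1 of the 4 lists of a mark were tested by limma 3.58.1 (R 4.3.3) on log2(covered bp + 200), by population only, with Benjamini-Hochberg adjustment over all windows and a threshold of 0.05. This is a fit to called peaks, in which windows with few peaks are coarse. HC, CIN-only and common regions followed the authors' 500 bp merging. Alternatives were the block, a stricter *q*, the pseudocount, the filter, the window, scaling, merging and leaving out each list. Promoter sequences are RefSeq's (all 3 genes matched). Overlap operations on simulated peaks equalled a count base by base, while the fit on simulated differences had little power for H3K27ac and made no call for H3K27me3. The 3 genes, the lists, the motifs and the tests were chosen with earlier results of these data known. Named genes were the 3 members, genes in their windows, their 3 nearest genes, and from each list the first 4 in list order or those behind a small count. Some of these are not reported here. Python 3.11.15, NumPy 2.4.6, SciPy 1.17.1 and matplotlib 3.10.9 were used.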

Additional observations from a re-analysis of the deposited data

How the results depend on the processing

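No alternative gave a transporter gene an adjusted *p* under 0.05, and the lowest was 0.298 (*Slc17a8* H3K27ac without non-CIN replicate 2). *Slc17a6* H3K27ac kept its direction in all 13 alternatives, from −3.19 to −0.75, which is also its range when single lists were left out. *Slc17a6* H3K27me3 ran from −0.35 to 0.00 (−0.34 to 0.00 without single lists). *Slc17a7* H3K27me3 changed sign, to 0.03 in a window of 2 kb either side of the TSS and to 0.02 without CIN replicate 2 or non-CIN replicate 1, and ran from −0.20 to 0.03 in all (−0.07 to 0.02 without single lists). *Slc17a8* H3K27ac ran from 0.26, with a pseudocount of 1000 bp, to 1.66 (0.83 to 1.66 without single lists), and had no peak and thus no value at a −log10 *q* of at least 4, without non-CIN replicate 1 or near the TSS. Counts of windows called moved from 0: at a −log10 *q* of at least 4, 96 H3K27ac windows had more in non-CINs and 242 more in CINs; with no filter 43 and 70; scaled to the list total 11 and 129. H3K27me3 gave 12 and 8 with no filter. The cause was not tested. These counts were 0 in both directions whenever a single list was left out. The 3 CIN HC peaks of *Slc17a6* H3K27ac became 0 at a −log10 *q* of at least 4 and 2 with a reciprocal overlap of 50%.

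The replicate numbers are shared by both populations, but no source says that a number marks shared animals. Deviations from the group means correlated between same-numbered lists at 0.290 over 23399 H3K27ac windows and 0.597 over 14979 H3K27me3 windows. With the replicate block the differences stayed at −1.97, −0.17, −0.03 and 0.83 (adjusted *p* 0.552, 0.727, 0.983 and 0.552), 0 windows were called, and the CIN-only regions near *Slc17a6* numbered 2 with or without pairing.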

Other observations

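The neighbourhoods of the 3 genes differed in H3K27me3, while for H3K27ac only that of *Slc17a7* stood apart. Within 100 kb H3K27ac covered 0.62% to 1.67% of the sequence at *Slc17a6* and 0.66% to 1.67% at *Slc17a8*, against 2.92% to 4.89% at *Slc17a7*. Of the regions common to all 4 H3K27ac lists, 5 lay within 100 kb of *Slc17a7*, among them those at *Rpl13a*, the *Aldh16a1* and *Pih1d1* start sites, *Ccdc155* and *Tead2*, against 1 near *Slc17a6* and 2 near *Slc17a8*. The region at the ribosomal protein gene *Rpl13a* stood at the 93.9th to 99.6th percentiles, and the one in *Ccdc155*, on the far side of the second H3K27me3 block, at the 49.1st to 84.0th. Of the 6 common H3K27me3 regions near *Slc17a7*, the 3 beyond its second block and its short continuation in *Ccdc155* lay at *Dkkl1* and *Slc6a16* and measured 116 to 2628 bp, at most the 92.2nd percentile. Within 100 kb of *Slc17a7* H3K27me3 covered 10.78% to 13.80% of the sequence, and within 100 kb of *Slc17a6* 4.68% to 6.12%.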
